A study of Homo sapiens with 9 samples.

Results

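The genes described here are 45 genes of mitosis, a list of cyclins, kinases, checkpoint and kinetochore proteins, kinesins, spindle proteins, cytokinesis factors and chromosome proteins. All 45 were found in the data and all 45 passed the filter on low counts, among 16181 genes tested and 56347 genes matched. The list was made by gene name, with no threshold on a measured value, but with earlier results of these data known. The cells were an established human kidney line, called HEK293 in the sample labels and 293 T in the study's methods, and RNA of the nucleus and of the cytoplasm was sequenced separately. One set of cells received control siRNA. The other received siRNAs against both WTAP and KIAA1429 (current symbol VIRMA), subunits of the complex that writes the N6-methyladenosine (m6A) mark on mRNA. The 9 samples analysed were 3 control nuclear samples, 3 WTAP/KIAA1429 RNAi nuclear samples, 2 RNAi cytoplasmic samples (replicates 1 and 2) and 1 control cytoplasmic sample (replicate 2). The single control cytoplasmic sample therefore stands behind every cytoplasmic and nuclear/cytoplasmic comparison with control cells, and nothing in the labels says that replicates came from separate cultures, so the spread between them may be technical.

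Cells enter mitosis when cyclins A and B activate the kinase CDK1, and the chromosomes are then condensed by condensin and topoisomerase II and attached to spindle microtubules through kinetochores. The spindle checkpoint delays anaphase until attachment is complete, after which the anaphase-promoting complex with CDC20 marks cyclin B and securin for destruction and the cell divides by cytokinesis. Most of these mRNAs are made in G2 and mitosis, and WTAP has been linked to CCNA2 mRNA and to passage through G2/M. In bulk RNA, a smaller share of cells in G2 and mitosis and less of an mRNA per cell cannot be told apart.

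The samples held between 11627403 and 19036141 estimated counts. Levels are given as CPM, the counts relative to the library size as scaled by edgeR's TMM method, and changes as log2 values with the standard error (SE) from edgeR's quasi-likelihood test. A gene was called when its log2 change lay beyond 0.5 and its false discovery rate (FDR, Benjamini-Hochberg over the 16181 genes) was under 0.1. Both siRNA targets were lower in the RNAi samples. WTAP was at 24.9 ± 2.40 CPM in control nuclei (SD, n = 3) and 14.0 ± 1.67 in RNAi nuclei (SD, n = 3), and VIRMA at 15.5 ± 3.73 and 7.24 ± 1.82. In the cytoplasm WTAP was at 37.5 CPM in the control sample and at 10.8 and 11.9 in the RNAi samples. Summed levels of 6 nuclear long non-coding RNAs, MALAT1 and NEAT1 among them, were 290 to 389 CPM in control nuclei, 421 to 452 CPM in RNAi nuclei, 66.3 CPM in the control cytoplasm and 38.5 and 43.2 CPM in the RNAi cytoplasm. OIP5-AS1, 1 of the 6, did not mark the nucleus here, at 33.0 CPM in the control cytoplasm and a mean of 33.5 CPM in control nuclei. Levels of this list moved with RNAi as well: of the 5 tested, MALAT1, NEAT1 and KCNQ1OT1 had a higher nuclear/cytoplasmic ratio after RNAi, with a median log2 change of 1.07 over the 5 (0.50 and 1 called with the GC correction described with the ratio). MALAT1, KCNQ1OT1 and OIP5-AS1 were called lower in the cytoplasm. In the nucleus NEAT1 at 0.52 (FDR 0.030) and KCNQ1OT1 at 0.79 (FDR 0.023) were called higher, and the others of the 5 were not. Of all genes 2.47% were called higher there. Summed mitochondrially encoded mRNAs were at 97570 CPM in the control cytoplasm, 117204 and 187717 CPM in the RNAi cytoplasm and 125370 to 243613 CPM in the nuclei, and the ratio was called for none of the 8. The part of the separation of the fractions in the results on mitotic genes was not tested. Of the neurofilament genes typical of HEK293 cells, NEFM was measured in every sample at 95.6 to 264 CPM. PTPRC, COL1A2 and ALB, markers of blood, connective tissue and liver, had at most 8 counts in any sample.

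CCNA2 encodes cyclin A2, which drives S phase and entry into mitosis. Its level was 34.5, 42.5 and 34.1 CPM in the control nuclei and 29.0, 31.0 and 30.4 CPM in the RNAi nuclei. In the cytoplasm it was 97.8 CPM in the control sample and 63.3 and 52.5 CPM in the RNAi samples. The RNAi samples lay below the control samples in both fractions, without overlap. The cytoplasmic log2 change was -0.75 (SE 0.17, FDR 0.012), which was called lower. When counts were corrected for base composition (GC content) it was -0.26 (FDR 0.41) and was not called. The nuclear change was -0.30 (SE 0.12, FDR 0.18) and was not called. Since both fractions moved the same way, the log2 change of the nuclear/cytoplasmic ratio was 0.46 (SE 0.21, FDR 0.18), or -0.08 with the correction, and missed both thresholds.

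**Figure D1:**
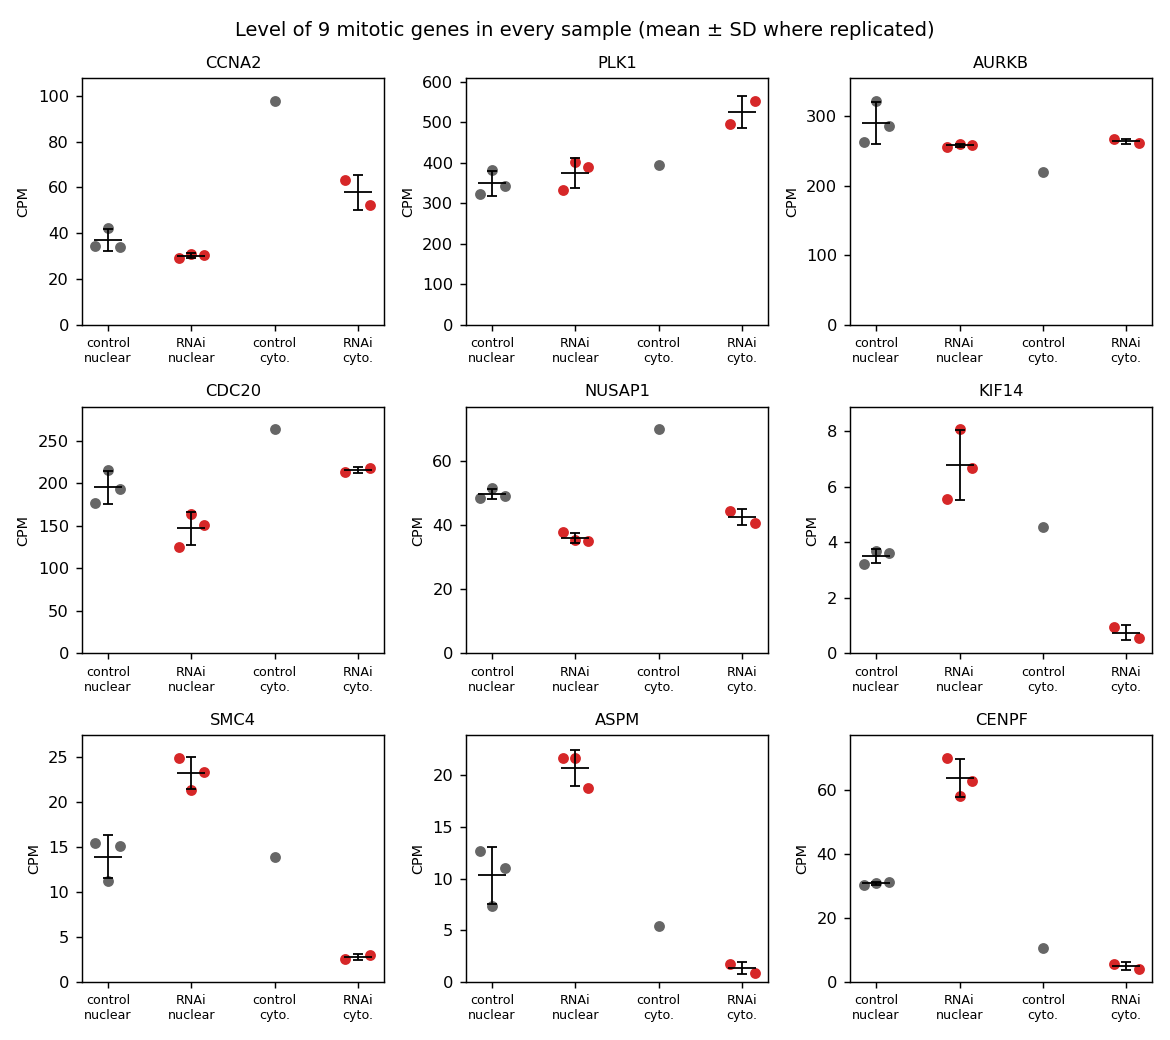
Level (CPM, linear axis from 0) of 9 mitotic genes in every sample, with grey points for control and red points for RNAi samples and black bars for mean ± SD where a group has replicates. KIF14, SMC4, ASPM and CENPF are higher in every RNAi nucleus than in every control nucleus and lower in the RNAi cytoplasm, while CCNA2, CDC20 and NUSAP1 are lower in both fractions.

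The promoters of these genes share sequence elements of cell cycle genes. RefSeq promoter sequences (GRCh38.p14, 250 bases before and 50 after the start) were matched by symbol for 39 of the 45 genes. The CCAAT letters (CCAAT or ATTGG, the NF-Y element) were present in 29 of the 39, against 36.5% of the 11612 promoters of tested genes and 35.7% of all 27305 promoters. The letters of the cell cycle homology region (the common form TTTGAA, the rarer form TTCGAA or the form known from cyclin A, CTTGAA, on either strand), the element read by the MuvB complex in G2/M genes, were present in 34 of the 39, against 16.9% and 25.2%. Both were present in 27 of the 39, against 6.7% and 9.9%. The windows of the 110 bases before the start are shown for CCNA2, for PLK1 and CDC20, which are abundant and whose nuclear/cytoplasmic ratio was not called, and for KIF11 and HMMR, whose ratio was called higher. Capitals mark CCAAT and cell cycle homology region letters, some of which adjoin or overlap, and each sequence reads 5′ to 3′ on the strand of its gene.
CCNA2 (chr4:121823884-121823993, minus strand): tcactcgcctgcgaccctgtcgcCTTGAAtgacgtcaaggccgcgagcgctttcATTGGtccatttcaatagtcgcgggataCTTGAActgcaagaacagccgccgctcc
PLK1 (chr16:23678779-23678888, plus strand): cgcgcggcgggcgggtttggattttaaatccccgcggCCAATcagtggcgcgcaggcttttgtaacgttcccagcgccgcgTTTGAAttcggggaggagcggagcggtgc
CDC20 (chr1:43358871-43358980, plus strand): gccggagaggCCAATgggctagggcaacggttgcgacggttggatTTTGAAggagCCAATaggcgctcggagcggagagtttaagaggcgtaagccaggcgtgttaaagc
KIF11 (chr10:92593020-92593129, plus strand): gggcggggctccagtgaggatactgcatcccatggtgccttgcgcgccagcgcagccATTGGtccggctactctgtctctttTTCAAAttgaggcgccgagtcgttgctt
HMMR (chr5:163460522-163460631, plus strand): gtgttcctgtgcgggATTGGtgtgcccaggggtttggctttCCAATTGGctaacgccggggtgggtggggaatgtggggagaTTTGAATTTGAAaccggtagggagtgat
In CCNA2, PLK1, KIF11 and HMMR a match to the homology region begins 28 or 29 bases before the start, with a CCAAT match upstream of it. The pair of motifs was found in 14 of 22 promoters of genes whose ratio was called higher and in 13 of 17 of the others. A match of letters is a description of the sequence and not a measured binding site.

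The nuclear/cytoplasmic ratio is the measure the study used for mRNA export, and its change is the RNAi effect in the nucleus minus that in the cytoplasm on the log2 scale. After RNAi the ratio rose for 23 of the 45 genes (51.1%), where 10.4% of all genes tested were called higher. By edgeR none of the 45 fell, where 7.87% of all genes did. That share depends on the scaling, at 1.01% with library size alone and 0.185% by limma on TPM. AURKB alone was lower at an unadjusted p under 0.05, and the DESeq2 and limma fits also called 0 lower. The median log2 change was 1.10 over the 45 genes and -0.05 over all genes. With the GC correction described next these medians were 0.19 and -0.12, and over the 38 of the 45 with at least 10 counts in every sample the median was 0.48. The 23 genes were found in some roles and not in others: all 3 cytokinesis genes, 4 of 5 chromosome structure genes, 4 of 5 centromere and kinetochore genes, 5 of 9 kinesins, 4 of 7 spindle proteins, 2 of 4 checkpoint genes and 1 of 6 cyclins and entry kinases rose. None of the 3 chromosomal passenger genes and none of the 3 ubiquitin ligase partners did. The GC content of these last 2 roles ran from 51.1% to 56.9%, and that of the cytokinesis genes from 38.3% to 41.5%. With the GC correction 1 of 3 cytokinesis, 4 of 5 chromosome structure and 2 of 5 centromere and kinetochore genes rose. So did 3 of 9 kinesins, 2 of 7 spindle proteins, 0 checkpoint genes and 0 cyclins and entry kinases. The part of base composition in the pattern by role was not tested.

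This result rests on 1 control cytoplasmic library, and the counts of control and RNAi cytoplasmic libraries depended on base composition in opposite directions. Over 2131 genes with a GC content of at most 40%, the median log2 deviation of a library from the mean over libraries was 0.53 in the control cytoplasmic sample and -0.35 and -0.46 in the RNAi cytoplasmic samples, while the 6 nuclear samples lay between -0.01 and 0.13. Over 2635 genes above 60% it was -0.16 in the control and 0.16 and 0.31 in the RNAi cytoplasmic samples. The GC content was taken from the transcript with most counts, with a median of 38.9% for the 23 genes that rose, 46.7% for the other 22 and 49.9% for all genes. Of 29 mitotic genes under 45% GC, 22 rose, against 1 of 16 at or above it, and over all genes the shares were 26.6% and 2.7%. Spearman's correlation of the ratio change with GC content was -0.80 across the 45 genes and -0.53 across all 16181, where genes share the same libraries and are not independent replicates. With a GC correction of the counts, chosen after the data were seen, 12 of the 45 genes (26.7%) still rose, against 2.86% of all genes, and all 12 were among the 23. None fell, against 3.34% of all genes. The 12 that rose were KIF14, SMC4, ASPM, KIF15, NUF2, CKAP2, CENPF, NCAPG, MKI67, TOP2A, ECT2 and KIF23. After the correction Spearman's correlation of the ratio change with GC content was -0.55 across the 45 genes and -0.01 across all genes. A trend with GC content thus remained among the 45. An effect of RNAi in the cytoplasm and a property of these libraries, with 1 control among them, cannot be told apart.

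**Figure D2:**
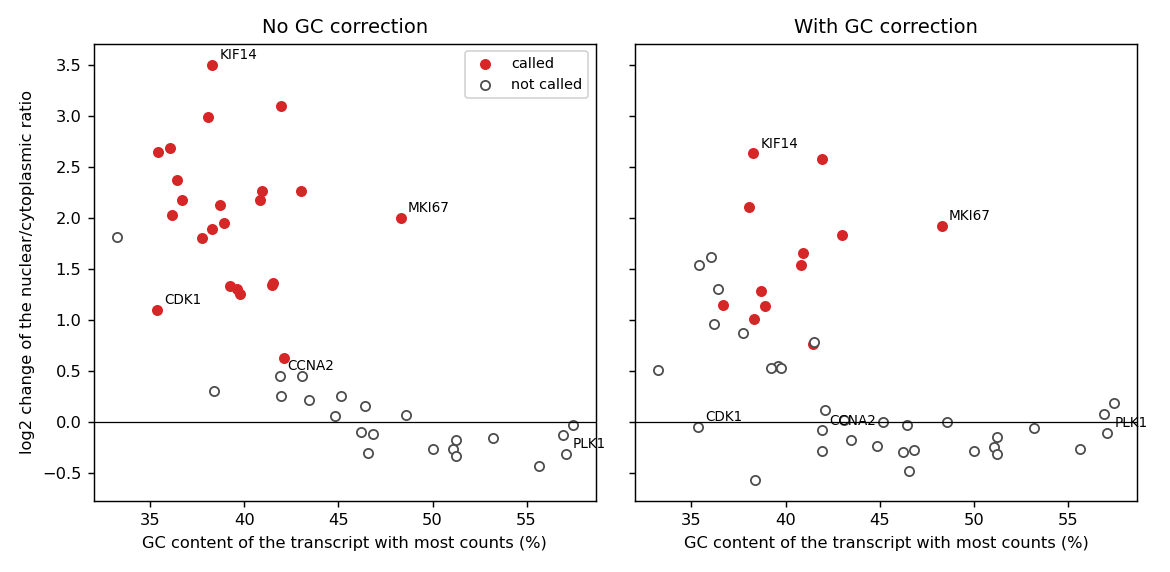
Log2 change of the nuclear/cytoplasmic ratio (y axis) against the GC content in percent of the transcript with most counts (x axis) for the 45 mitotic genes, without (left) and with (right) the GC correction, with filled red points for called genes. Without correction 23 genes are called, nearly all of them under 45% GC, and with it 12 are called, KIF14, SMC4, ASPM and MKI67 among the highest, while CDK1 moves to about 0.

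**Figure D3:**
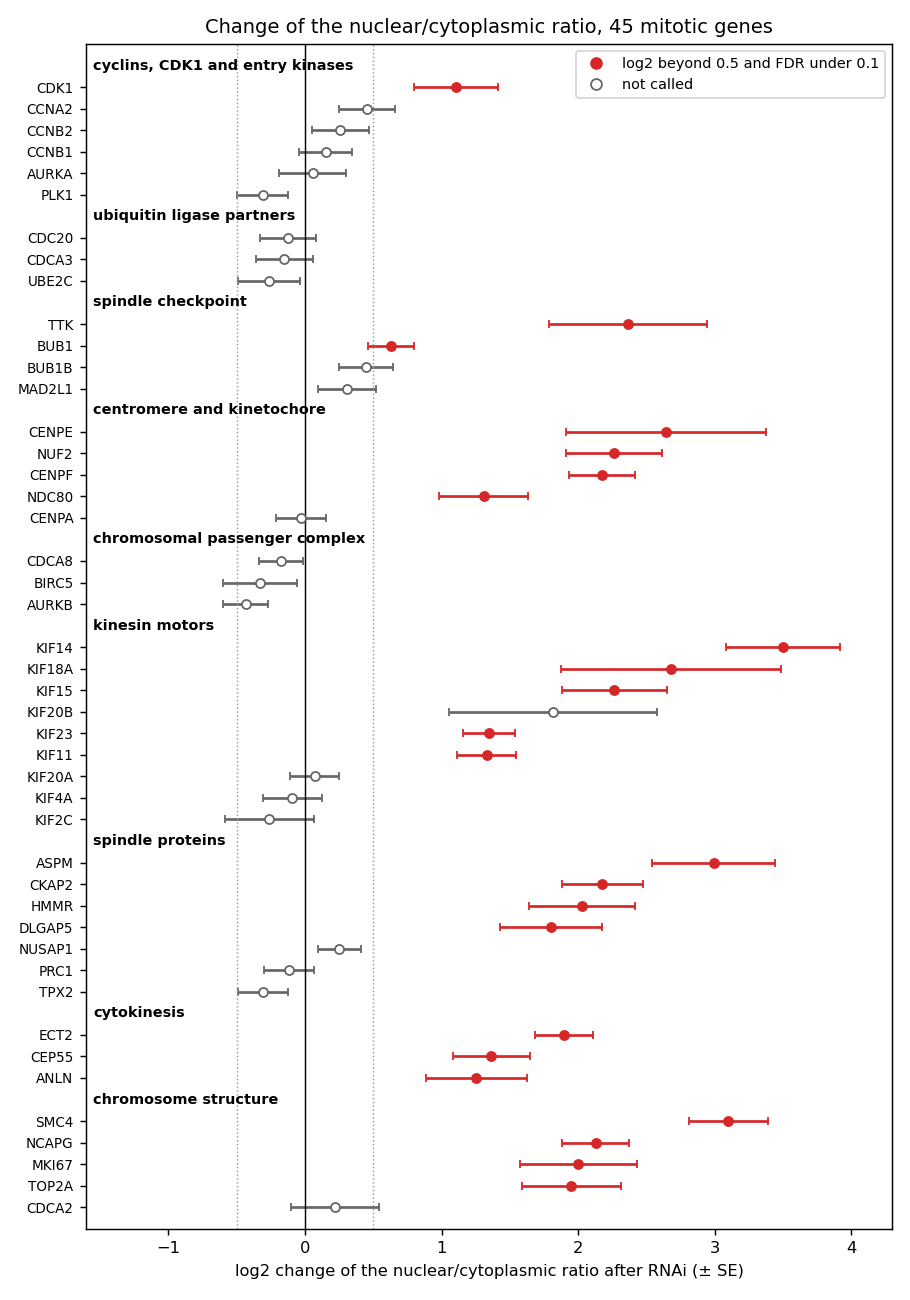
Log2 change of the nuclear/cytoplasmic ratio after RNAi with its SE (x axis) for the 45 mitotic genes grouped by role (y axis), filled red where the log2 change was beyond 0.5 with an FDR under 0.1. Called genes run from BUB1 at 0.63 to KIF14 at 3.50, and AURKB at -0.43 is the lowest of the 45.

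Among the kinesins, the motors that move along spindle microtubules, KIF14, a motor of cytokinesis, had the highest change of all 45 genes. It was at 3.23, 3.68 and 3.63 CPM in the control nuclei and 5.56, 8.06 and 6.68 CPM in the RNAi nuclei. In the cytoplasm it was at 4.56 CPM in the control sample and at 0.935 and 0.547 CPM (12 and 5 counts) in the RNAi samples. The groups did not overlap in either fraction, and the directions were opposite. The ratio change was 3.50 (SE 0.42, FDR 0.0016), and 2.63 with the GC correction (FDR 0.025). KIF18A, which controls the length of kinetochore microtubules, changed by 2.68 (SE 0.80, FDR 0.056) from only 6 and 4 counts in the RNAi cytoplasm. KIF15, which helps to hold spindle poles apart, changed by 2.26 (SE 0.38, FDR 0.0073). KIF11 (Eg5), the motor that first separates the poles, changed by 1.33, and KIF23 (MKLP1), of the central spindle, by 1.35. KIF20B, with 3 and 2 counts in the RNAi cytoplasm, was at 1.82 and was not called (FDR 0.15). The microtubule depolymerase KIF2C was the lowest kinesin at -0.26 (SE 0.33, FDR 0.65).

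Of the chromosome structure genes, SMC4, the ATPase core of condensin, was at 15.4, 11.2 and 15.1 CPM in control nuclei and at 24.9, 21.3 and 23.3 CPM in RNAi nuclei. Its cytoplasmic level was 13.9 CPM in the control sample and 2.49 and 2.95 CPM in the RNAi samples. Every RNAi nucleus was above every control nucleus, and both RNAi cytoplasmic samples were far below the control one. The ratio change was 3.10 (SE 0.29, FDR 0.00083), the lowest FDR among the 45 genes, and 2.58 with the GC correction. NCAPG, another condensin subunit, changed by 2.13 (SE 0.25, FDR 0.0016), MKI67, the proliferation antigen that coats mitotic chromosomes, by 2.00 (SE 0.43, FDR 0.017), and TOP2A, which untangles DNA, by 1.95. CDCA2, which brings a phosphatase to chromatin, was at 0.22 and was not called.

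ASPM, a protein of the spindle poles, was at 12.6, 7.29 and 11.0 CPM in control nuclei and at 21.7, 21.7 and 18.7 CPM in RNAi nuclei. In the cytoplasm it was at 5.35 CPM in the control sample and at 1.71 and 0.875 CPM (22 and 8 counts) in the RNAi samples. The groups were again apart in both fractions, and control nucleus 2 was the lowest of the 6 nuclear samples. The ratio change was 2.99 (SE 0.45, FDR 0.0045). CKAP2, which stabilises microtubules, changed by 2.18 (SE 0.30, FDR 0.0030), HMMR by 2.03 (SE 0.39, FDR 0.011) and DLGAP5 (HURP) by 1.80. TPX2, the activator of Aurora A at the spindle, was the lowest spindle protein at -0.31 (SE 0.19, FDR 0.31).

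In the kinetochore, CENPF, a large protein of its outer layer, was at 30.2, 30.9 and 31.1 CPM in control nuclei and 70.0, 58.2 and 62.8 CPM in RNAi nuclei. Its cytoplasmic level was 10.6 CPM in the control sample and 5.69 and 3.94 CPM in the RNAi samples. The control nuclei agreed within 1 CPM and every RNAi nucleus lay well above them. Its ratio change was 2.17 (SE 0.24, FDR 0.0014). CENPE, the kinetochore kinesin, changed by 2.64 (SE 0.73, FDR 0.043), but it was close to the limit of detection, with 11 counts in the control and 1 and 3 counts in the RNAi cytoplasm. From those counts its RNAi to control ratio in the cytoplasm was 0.272, with an exact 95% interval of 0.063 to 0.917 that covers counting error only. NUF2 and NDC80, partners in the complex that grips microtubules, changed by 2.26 (SE 0.35, FDR 0.0055) and 1.31, and CENPA, the centromeric histone, by -0.03 (SE 0.19, FDR 0.94).

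Of the checkpoint genes, TTK (MPS1), the kinase that starts checkpoint signalling, changed by 2.37 (SE 0.58, FDR 0.028), and BUB1 by 0.63. BUB1B (BUBR1) at 0.45 and MAD2L1 (MAD2), which both block CDC20, at 0.31 (SE 0.21, FDR 0.38), were not called. Among the cytokinesis genes ECT2, which activates RhoA at the cell equator, changed by 1.89 (SE 0.21, FDR 0.0015), CEP55 by 1.36, and ANLN (anillin), a scaffold of the contractile ring, by 1.25 (SE 0.37, FDR 0.054). CDK1 was the only cyclin or entry kinase called, at 1.10 (SE 0.31, FDR 0.044). Its change was -0.05 with the GC correction.

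Per length, the most abundant mitotic genes were not among those that rose. The highest mean levels over the 9 samples were those of UBE2C at 549 TPM, salmon's abundance relative to transcript length, AURKB at 318 TPM and PLK1 at 188 TPM, against 16.3 TPM for CCNA2. In CPM, which does not account for length, MKI67 had the highest mean of the 45 in RNAi nuclei, at 403 ± 27.1 (SD, n = 3). UBE2C, the ubiquitin-conjugating enzyme of the anaphase-promoting complex, was at 269, 339.6 and 312 CPM in control nuclei and 285, 329 and 324 CPM in RNAi nuclei. In the cytoplasm it was at 409.9 CPM in the control sample and 431 and 569 CPM in the RNAi samples. The nuclear groups overlapped, and its ratio change was -0.26 (SE 0.23, FDR 0.49).

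PLK1 (Polo-like kinase) was at 323, 383 and 342 CPM in control nuclei and 333, 403 and 391 CPM in RNAi nuclei. Its cytoplasmic level was 394 CPM in the control sample and 497 and 553 CPM in the RNAi samples. The nuclear groups overlapped while the cytoplasmic samples stood higher after RNAi, with a cytoplasmic change of 0.41 (SE 0.16, FDR 0.094) that stayed within 0.5. Its ratio change of -0.31 (SE 0.19, FDR 0.32) was not called.

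AURKB, BIRC5 (survivin) and CDCA8 (borealin) belong to the chromosomal passenger complex, which corrects wrong attachments and guides cytokinesis. AURKB was at 263, 322 and 286 CPM in control nuclei and 256, 259.6 and 259 CPM in RNAi nuclei. In the cytoplasm it was at 220.4 CPM in the control sample and 267 and 262 CPM in the RNAi samples. Every RNAi nucleus was below every control nucleus, which held for 13.8% of all genes, and both RNAi cytoplasmic samples were above the control one. The directions were opposite to those of KIF14, but AURKB was not called in either fraction. The nuclear changes of the 3 passenger genes lay between -0.17 and -0.16. The GC content was 55.7% for AURKB and 38.3% for KIF14, and its part in the opposite directions was not tested. The ratio change of AURKB was -0.43 (SE 0.16, FDR 0.11) and was not called. BIRC5 was at 117, 176 and 131 CPM in control and 109, 139.9 and 129 CPM in RNAi nuclei, and at 205 CPM in the control and 217 and 243 CPM in the RNAi cytoplasm. Its nuclear groups overlapped, and its ratio change was -0.33 (SE 0.27, FDR 0.46). CDCA8 was at -0.17 (SE 0.16, FDR 0.52). With the GC correction the 3 genes lay between -0.05 and 0.11 in the cytoplasm and between -0.31 and -0.15 in the ratio.

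In the cytoplasm 29 of the 45 genes (64.4%) fell, where 14.2% of all genes were called lower. By edgeR none rose, where 10.4% of all genes did. PLK1 alone was higher at an unadjusted p under 0.05, and the DESeq2 and limma fits also called 0 higher. The median cytoplasmic change was -1.12 for the 45 genes and 0.01 for all genes. With the GC correction 16 fell, against 3.97% of all genes, and the median of the 45 was -0.52. All 23 genes whose ratio rose fell in the cytoplasm, as the ratio contains the cytoplasmic value, and the other 6 that fell there were CCNA2, CCNB2, BUB1B, MAD2L1, NUSAP1 and KIF20B. NUSAP1, which bundles spindle microtubules, was at 69.7 CPM in the control sample and 44.2 and 40.6 CPM in the RNAi samples, a change of -0.72 (SE 0.13, FDR 0.0049). With the GC correction this change was -0.23 (FDR 0.33) and was not called.

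**Figure D4:**
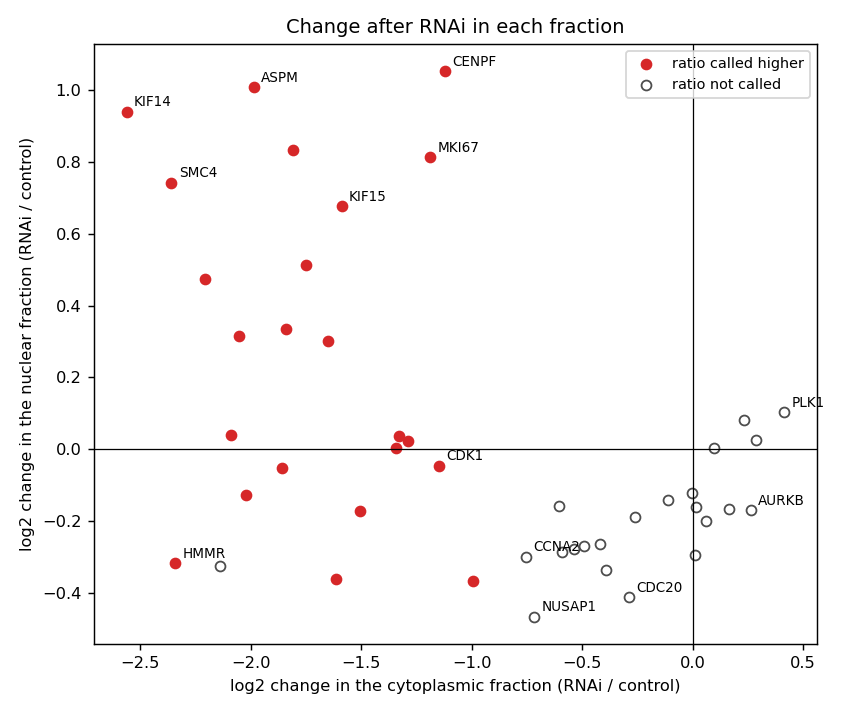
Log2 change after RNAi in the cytoplasmic fraction (x axis) and in the nuclear fraction (y axis) for the 45 mitotic genes, filled red where the nuclear/cytoplasmic ratio was called higher. CENPF, ASPM and KIF14 stand at the top left, NUSAP1 has the lowest nuclear change at -0.47, and the cytoplasmic changes spread over a wider range than the nuclear ones.

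The nuclear comparison does not use the control cytoplasmic sample and has 3 samples a group. In the nucleus 6 of the 45 genes (13.3%) rose, where 2.47% of all genes were called higher. They were CENPF at 1.05 (SE 0.12, FDR 0.0089), ASPM at 1.01 (SE 0.21, FDR 0.034), KIF14 at 0.94 (SE 0.21, FDR 0.041), MKI67 at 0.81 (SE 0.24, FDR 0.090), SMC4 at 0.74 (SE 0.15, FDR 0.032) and KIF15 at 0.68 (SE 0.20, FDR 0.083). All 6 also had a higher ratio, and with the GC correction the number that rose was again 6, against 2.47% of all genes. Nuclear changes over all genes had a Spearman correlation with GC content of -0.04. Only CENPF kept its call in all 9 fits that left out a sample. The count was 1 without control nuclear replicate 3, RNAi nuclear replicate 2 or RNAi nuclear replicate 3, and 2 without RNAi nuclear replicate 1, where over all genes the number called higher also dropped, from 400 to between 32 and 127. The cause of these drops was not tested. The control nuclei were widely spread for MKI67, with 319.8, 138 and 230.3 CPM in control nuclei and 433, 381 and 394 CPM in RNAi nuclei. Control nuclear replicate 2 was the lowest control nucleus for 14 of the 23 genes whose ratio rose and for 39.9% of all genes.

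By edgeR none of the 45 fell in the nucleus, where 2.42% of all genes were called lower, and the DESeq2 and limma fits also called 0 lower. At an unadjusted p under 0.05, 9 were lower, namely AURKA, BUB1, CCNA2, CCNB1, CCNB2, CDC20, MAD2L1, NUSAP1 and TPX2. BUB1, CDC20 and NUSAP1 had an FDR under 0.1 but a change within 0.5. Every RNAi nucleus was below every control nucleus for 13 of the 45 genes, where this held for 13.8% of all genes, and above it for 8, where this held for 14.3%. NUSAP1 was at 48.5, 51.4 and 48.8 CPM in control nuclei and 37.6, 35.1 and 34.9 CPM in RNAi nuclei, a change of -0.47 (SE 0.09, FDR 0.031). CDC20, the activator of the anaphase-promoting complex, was at 177, 216 and 194 CPM in control and 126, 164 and 151 CPM in RNAi nuclei, a change of -0.41 (SE 0.11, FDR 0.076). In the cytoplasm CDC20 was at 264 CPM in the control sample and 213 and 219 CPM in the RNAi samples. CDC20 was thus lower after RNAi in both fractions without overlap, but it was called in neither. Its cytoplasmic change was -0.29, against a single control sample, and its ratio change was -0.12.

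In control cells more of the mitotic mRNAs were called lower than higher in the nucleus against the cytoplasm. Levels are relative to each library, so this sets an mRNA against other genes and does not say where most of its molecules lay. In the nucleus against the cytoplasm of control cells 3 genes were called higher, where 28.0% of all genes were, and 20 lower, where 22.7% were. The 3 were ANLN at 2.09, CENPF at 1.53 and ASPM at 0.94, and the lowest were ECT2 at -1.497 and CCNA2 at -1.40. With the GC correction 5 were higher and 22 lower in control cells, against 3659 and 5176 of all 16181 genes. In RNAi cells 21 were called higher in the nucleus, where 32.9% of all genes were, and 10 lower, where 24.9% were. ASPM at 3.93, CENPF at 3.70 and CENPE at 3.58 stood highest there, and CCNA2 at -0.95 was the lowest of the 45. The balance in RNAi cells turned with the GC correction, to 14 higher, where 24.9% of all genes were, and 16 lower, where 38.8% were, and the median of the 45 went from 0.29 to -0.21. These values share samples with the ratio change and are another view of it.

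Among the other features of the transcript with most counts, those of genes whose ratio rose had a median of 22 exons and 3568 bases, and those of the other genes 10 exons and 2549.5 bases. Spearman's correlation of the ratio change with transcript length was 0.59 across the 45 genes and 0.15 across all genes. The letters GGACT, the commonest form of the m6A consensus, occurred at a median of 0.53 per kilobase in the genes that rose, 0.87 in the others and 0.94 over all genes. The correlation of the ratio change with it was -0.32 across the 45 genes and -0.17 across all genes. A GGACT match is not a measured m6A site. For NUF2, CENPA and KIF20B the transcript with most counts was one annotated without a coding sequence.

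The estimates also differ by transcript type, as they do for many genes outside the list. Of 39 mitotic genes with both protein-coding and other transcripts, the share of TPM in protein-coding transcripts was lower in all 6 nuclear than in all 3 cytoplasmic samples for 14 (35.9%), where this held for 27.7% of all genes with both. CDK1 stood out most. Its protein-coding share was 36.5%, 31.2% and 29.9% in control nuclei and 31.2%, 29.7% and 37.8% in RNAi nuclei, against 92.5% in the control cytoplasm, while both RNAi cytoplasmic samples held protein-coding CDK1 alone. Most of the rest lay in retained-intron transcripts, ENST00000475504 with a mean of 43.0% and ENST00000487784 with 24.3% of the nuclear TPM of CDK1. AURKB had 60.4% to 69.0% protein-coding TPM in the nuclei and 95.3% to 98.2% in the cytoplasm, and its leading retained-intron transcript ENST00000584561 held 18.1% in nuclei and 1.6% in cytoplasm. PRC1, which crosslinks the central spindle, had 79.5% to 83.8% and 98.4% to 99.4%. Between conditions, the share was lower in every RNAi nucleus than in every control nucleus for 4 of the 39 genes, where this held for 10.4% of all genes, and higher for 2, where this held for 4.11%. The difference between conditions was not tested. The depth behind CDK1 was 29 to 116 counts per sample.

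**Figure D5:**
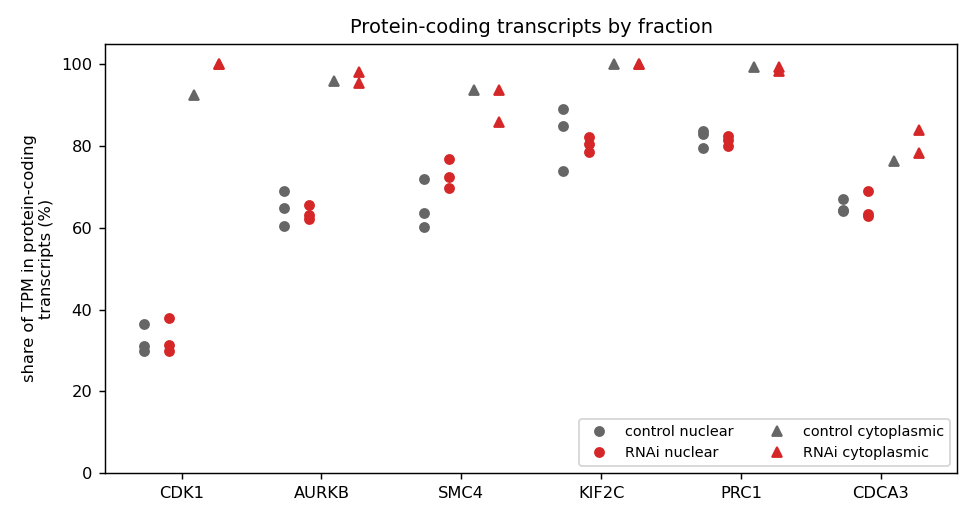
Share of TPM in protein-coding transcripts (y axis, percent) in every sample for CDK1, AURKB, SMC4, KIF2C, PRC1 and CDCA3 (x axis), with circles for nuclear and triangles for cytoplasmic samples and grey for control and red for RNAi. The genes shown were taken from the 14 in which the 6 nuclear samples lie below the 3 cytoplasmic samples, and the margin is widest in CDK1.

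Beyond the 45 genes, 103 others of the mitotic pathway were listed, of which 102 were tested. The ratio rose for 24 of them (23.5%) and fell for 4, with a median change of 0.10, where 10.4% of all genes rose and 7.87% fell. In the nucleus 2 rose and 3 fell, near the shares of all genes, 2.47% higher and 2.42% lower. The cohesin and separase genes, which hold and release sister chromatids, came nearest to the 45, with 9 of 15 risen, 0 fallen and a median of 1.14. With the GC correction 4 of the 15 rose. NIPBL, the cohesin loader, changed by 3.36 (SE 0.56, FDR 0.0070), with 12.6, 4.09 and 6.99 CPM in control nuclei, 18.99, 18.4 and 18.2 CPM in RNAi nuclei, 17.2 CPM in the control cytoplasm and 4.52 and 3.17 CPM in the RNAi cytoplasm. Control nuclear replicates were spread for NIPBL as for MKI67, with replicate 2 the lowest in both.

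Of 28 further kinetochore genes 7 rose and 1 fell, led by KNL1, the platform for the checkpoint kinases, at 2.81 (SE 0.40, FDR 0.0035), with INCENP, the scaffold of the passenger complex, at -0.69 (SE 0.19, FDR 0.040). With the GC correction 1 of the 28 rose and 1 fell. Without the correction AURKB, BIRC5 and CDCA8 also had ratio changes below 0, but none of them was called. Of all genes 47.2% had a ratio change above 0. Of 21 further condensin, spindle and cytokinesis genes tested, 3 rose and 2 fell, with the condensin subunits SMC2 at 2.91 (SE 0.59, FDR 0.014) and NCAPD2 at -0.66 (SE 0.15, FDR 0.024) at the 2 ends. These values are without the GC correction, and SMC2 was low in the RNAi cytoplasm, at 2.03 and 0.984 CPM. The numbers in the next 3 lists and in the spindle list lie near the share of all genes, 10.4% higher and 7.87% lower. Of 14 anaphase-promoting complex genes 2 rose, led by the inhibitor FBXO5 (EMI1) at 1.57 (SE 0.28, FDR 0.0095), and of 12 genes that control CDK1 2 rose, led by BORA at 1.16 (SE 0.36, FDR 0.064). With the GC correction 0 of the 14 and 0 of these 12 rose, and 1 of these 12 fell. Of 12 regulators of G2/M transcription 1 rose and 1 fell, the MuvB subunit LIN54 at 1.22 (SE 0.23, FDR 0.0099) and the transcription factor MYBL2 at -0.76 (SE 0.17, FDR 0.021). With the GC correction 1 of these regulators rose and 0 fell. MYBL2 was at 552, 653 and 583 CPM in control nuclei, 556, 623 and 586 CPM in RNAi nuclei, 678 CPM in the control cytoplasm and 1084 and 1186 CPM in the RNAi cytoplasm.

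As a comparison within the cell cycle, 38 genes of DNA replication and G1/S were described in the same way. The ratio rose for 7 and fell for 6, against the same 10.4% and 7.87% of all genes, with a median of -0.15. In the nucleus 0 rose and 2 fell, where 2.47% of all genes were called higher and 2.42% lower. DBF4, an activator of replication origins, was highest at 2.38 (SE 0.35, FDR 0.0041), and CDT1, which licenses origins, lowest at -1.11 (SE 0.16, FDR 0.0035). The values of this list are without the GC correction. With it, 12 of the 45 mitotic ratios rose with a median of 0.19, and 2.86% of all genes rose. The difference between this list and the mitotic list, and the part of base composition in it, were not tested.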

How the data were processed

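Nuclear and cytoplasmic RNA was sequenced after control or WTAP/KIAA1429 RNAi (Lexogen SENSE mRNA-Seq). Per the labels and the study's methods the authors used cutadapt for trimming and salmon, with Ensembl transcripts of hg19, for quantification, and their versions are not given in the sources used here. The authors deposited, for each transcript and sample, an estimated count without normalization, TPM, which has a fixed total per sample, and lengths. Antisense and overlapping genes, and paralogues, share reads that salmon divides by estimate.

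Transcripts were matched by identifier to GENCODE 44 on GRCh37 (183122 of 215170, with 83.07% to 88.31% of counts), and the other transcripts were left out. Per gene, the estimated counts were added up, then rounded. Genes with at least 10 counts in at least 3 samples were fitted with edgeR 4.0.16 (R 4.3.3), TMM scaling, 4 groups and the quasi-likelihood test, with 5 residual degrees of freedom. The control cytoplasmic sample was thus assumed to vary like the other groups. The SE is the log2 change divided by the square root of F. The contrast, the log2 limit of 0.5 and the FDR limit of 0.1 follow the study. At these depths 3 counts are 0.19 to 0.303 CPM. The code was tested on simulated counts for 16181 genes, 200 of them changed by 2 on the log2 scale in RNAi nuclei. For the ratio it found 92.5% of the 200, and 7.5% of the genes found were unchanged ones. For the nuclear comparison it found all 200, and 12.7% of the genes found were unchanged, above the FDR limit of 0.1.

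No replicates agreed within sampling noise (chi-square per degree of freedom at least 5.45). Alternatives were DESeq2 1.42.0, limma 3.58.1 on log2(TPM + 1), other scalings and filters, a transcript length offset, an FDR of 0.05, a replicate block, leaving out each sample, and GC corrections added after seeing the data. The 45 genes and the other lists were chosen with earlier results of these data known. Genes named are CCNA2, the called genes of the ratio and nuclear comparisons (at most 12 each), the highest and lowest of each role, and the largest called change in each direction of the other lists; further names were chosen after their values were seen. FAM83D, NEFL and PECAM1 were not analysed here.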

Additional observations from a re-analysis of the deposited data

Results flagged for a closer look

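For 23 mitotic genes RNAi had different effects on the nuclear and the cytoplasmic level, by the test of the difference itself (the ratio contrast of edgeR's quasi-likelihood fit, FDR under 0.1). All 23 were higher in the nucleus relative to the cytoplasm, and each rests on the single control cytoplasmic sample. Of the kinesins, the log2 difference was 3.50 for KIF14, 2.68 for KIF18A, 2.26 for KIF15, 1.35 for KIF23 and 1.33 for KIF11. Of the chromosome structure genes it was 3.10 for SMC4, 2.13 for NCAPG, 2.00 for MKI67 and 1.95 for TOP2A. Of the spindle proteins it was 2.99 for ASPM, 2.18 for CKAP2, 2.03 for HMMR and 1.80 for DLGAP5. Of the centromere and kinetochore genes it was 2.64 for CENPE, 2.26 for NUF2, 2.17 for CENPF and 1.31 for NDC80. Of the cytokinesis genes it was 1.89 for ECT2, 1.36 for CEP55 and 1.25 for ANLN. It was 2.37 for TTK and 0.63 for BUB1 of the checkpoint and 1.10 for CDK1. The part of base composition in these values was not tested apart from the GC correction, under which ANLN, BUB1, CDK1, CENPE, CEP55, DLGAP5, HMMR, KIF11, KIF18A, NDC80 and TTK, 11 of the 23, were no longer called.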

How the results depend on the processing

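No fit without the single control cytoplasmic sample could be made for the ratio, for the cytoplasm or for nucleus against cytoplasm in control cells. With the GC correction, added after the data were seen, 12 ratios rose, 16 genes fell in the cytoplasm, 1 fell in the nucleus, and for nucleus against cytoplasm 16 were lower in RNAi cells and 5 higher in control cells. With GC and length together 12 ratios rose and 1 fell, 18 genes fell in the cytoplasm, and 13 were higher in the nucleus of RNAi cells and 5 in that of control cells. CDK1 changed sign with the GC correction (ratio change -0.046), and MAD2L1 was called lower at -0.60 with GC and length. Same-numbered samples deviated together only weakly (r of 0.037 to 0.197 over 7 pairs), so the numbers were not taken as pairs. The replicate block gave 24 ratios higher and 1 lower, and 1 gene higher in the cytoplasm. With at least 10 counts in every sample 38 of the genes were tested, 3 rose in the nucleus and 5 were lower in the nucleus of RNAi cells. ASPM, KIF14 and KIF15, which rose in the nucleus in the main fit, were not tested there. They had 8, 5 and 9 counts in RNAi cytoplasmic replicate 2, which plays no part in the nuclear comparison. Library size alone moved the median ratio change of all genes from -0.05 to 0.23, and 3 genes were lower in the nucleus of RNAi cells. By limma on TPM 1 was lower in the nucleus of RNAi cells and 12 in that of control cells, and with the length offset 6 were higher in that of control cells. Where no value above shows it, the cause was not tested.

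Over the fits that left out 1 sample, 19 to 24 ratios rose, and 19 of the 23 rose in all 8 of them, ANLN, CDK1, CENPE and KIF18A being the others. In the nucleus 1 to 7 genes rose and 0 to 1 fell, and in the cytoplasm 24 to 29 fell. Nucleus against cytoplasm gave 3 to 5 higher and 17 to 21 lower in control cells, and 19 to 21 higher and 8 to 11 lower in RNAi cells. Low counts limit KIF20B, CENPE, KIF18A and KIF14 in the RNAi cytoplasm. ASPM, HMMR and KIF15 were also low there, with 8, 7 and 9 counts in replicate 2.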
